A study of Mus musculus with 2 samples.

Results

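The genes of sterol and fatty acid synthesis were followed through the cell types of the mouse dentate gyrus. The set holds 34 genes, chosen by name for their place in the pathway, with earlier results of these data known. They were matched by symbol to the 32285 genes of the count matrix, and all 34 were found and tested. They comprise 18 enzymes of cholesterol synthesis, 4 genes of SREBP control and 12 enzymes of fatty acid synthesis, elongation and desaturation. All are protein-coding genes.

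Cholesterol is built from acetyl-CoA, which is turned into mevalonate and then isoprenoid units, joined to squalene, closed to lanosterol and trimmed to cholesterol by a chain of enzymes in the endoplasmic reticulum. Fatty acids come from the same acetyl-CoA, through malonyl-CoA and fatty acid synthase, and are then elongated and desaturated. The SREBP transcription factors drive the genes of both branches, and the brain makes its own cholesterol, much of it in astrocytes and in oligodendrocytes that build myelin.

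Cells were dissociated from the dentate gyrus at postnatal day 30 and profiled by droplet single-cell RNA sequencing, which counts transcripts near their 3' end by unique molecular identifiers (UMIs). One genotype was a conditional knockout (cKO; Nestin-Cre transgene, Phf2flox/flox) and the other a control (Nestin-Cre transgene, Phf2+/+), with 4 mice each and 1 library each. All mice carried the Cre transgene, whose Nestin promoter is active in neural progenitors, so neurons, astrocytes and oligodendrocytes descend from cells in which it acts, while microglia and blood cells do not. Phf2 encodes a histone demethylase, studied in this series for how stem cells leave quiescence.

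The matrix holds the libraries under 2 barcode suffixes, and the sources used here do not tie a suffix to a genotype. They are called library 1 and library 2, no comparison of cKO with control was made, and in every pair of values below the library 1 value stands before the library 2 value. In total, 102897659 UMIs belonged to library 1 and 107266420 to library 2. Of their barcodes 8029 and 8129 were kept as cells, and 28 barcode sequences occurred in both libraries among those past the UMI minimum. Clusters were named from marker genes without use of the 34 genes, so each class name stands for cells that are like that type in its markers. Oligodendrocyte precursors (OPC) numbered 25 and 55 cells, premyelinating oligodendrocytes (PreOL) 46 and 57, mature oligodendrocytes (OL) 291 and 356, radial glia-like stem cells (RGL) 559 and 790, and astrocytes 576 and 694. At least 25% of cells had a UMI of 6 of 6 markers in OPC, 8 of 8 in PreOL, 11 of 12 in OL and 9 of 9 in astrocytes of both libraries, and of 4 of 8 and 6 of 8 markers in RGL. RGL also carried 8 of the 9 astrocyte markers at that share. OPC carried 5 of the 8 PreOL markers in library 1 and 4 of 8 in library 2, and PreOL carried 4 of the 6 OPC markers in both.

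Other cell material was measured in these classes. Microglial markers summed to 1812 CPM (counts scaled to a fixed library total of 1e6 UMIs) in OPC of library 1, against 101 CPM in OPC of library 2. Haemoglobin and other erythroid markers summed to 22360.0 CPM in OPC of library 2 and 5891 CPM in OL of library 2. They summed to 1176 and 306 CPM in RGL and 1010 and 172 CPM in astrocytes. In library 1, 4 of the 5 erythroid markers were in at least 25% of cells of OPC, PreOL, OL, RGL and astrocytes. Leaving out the cells rich in either kind of marker left 20 members higher and 1 lower between PreOL and OPC, and 20 and 6 between OL and PreOL, counts described below. The PreOL class also differed between libraries in markers of mature OL, which summed to 302 CPM in library 1 and 1210 CPM in library 2.

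Across the 18 named classes the set was unevenly spread. The summed level of the 18 sterol enzymes was 802 CPM in OPC of library 1 and 768 CPM in OPC of library 2. It was 1817 and 2623 CPM in PreOL, 2558 and 2085 CPM in OL, 1410.4 and 1719 CPM in RGL, and 2548 and 3138 CPM in astrocytes. These sums carry no test, and the libraries differed in opposite directions in PreOL and OL. Msmo1, a methylsterol oxidase of the lanosterol branch, varied widely among neural cells, with 839 and 1190.1 CPM in astrocytes, 48.04 and 67.8 CPM in intermediate progenitors and 11.3 and 18.5 CPM in neuroblasts.

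Sqle, the squalene epoxidase, stood at 1.65 and 1.58 CPM in microglia and 6.22 and 5.403 CPM in endothelial cells. Ebp, the sterol isomerase, was measured in such cells too, at 65.8 and 60.6 CPM in microglia and 101 and 92.3 CPM in fibroblasts. Elovl1, an elongase of saturated very long chains, was likewise present outside the neural classes, at 52.8 and 52.2 CPM in microglia and 75.1 and 67.96 CPM in endothelial cells. Me1, the cytosolic malic enzyme that yields NADPH, had 64.04 and 67.5 CPM in choroid plexus cells but 0.883 and 1.31 CPM in microglia. Elovl6, the elongase that extends palmitate, had 95.8 and 98.7 CPM in neuroblasts against 17.8 and 27.2 CPM in granule neurons. The free RNA of the suspension, read from barcodes with fewer than 100 UMIs, held 28.98 and 29.1 CPM of Sqle, 44.1 and 34.2 CPM of Elovl1 and 432 and 387 CPM of Scd2. It was estimated to supply 0.19% to 2.03% of the UMIs of a class. Each estimate is the lowest among the marker sets of other classes, and some rest on few UMIs (1 in OPC of library 1), so the share may be higher.

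**Figure D1:**
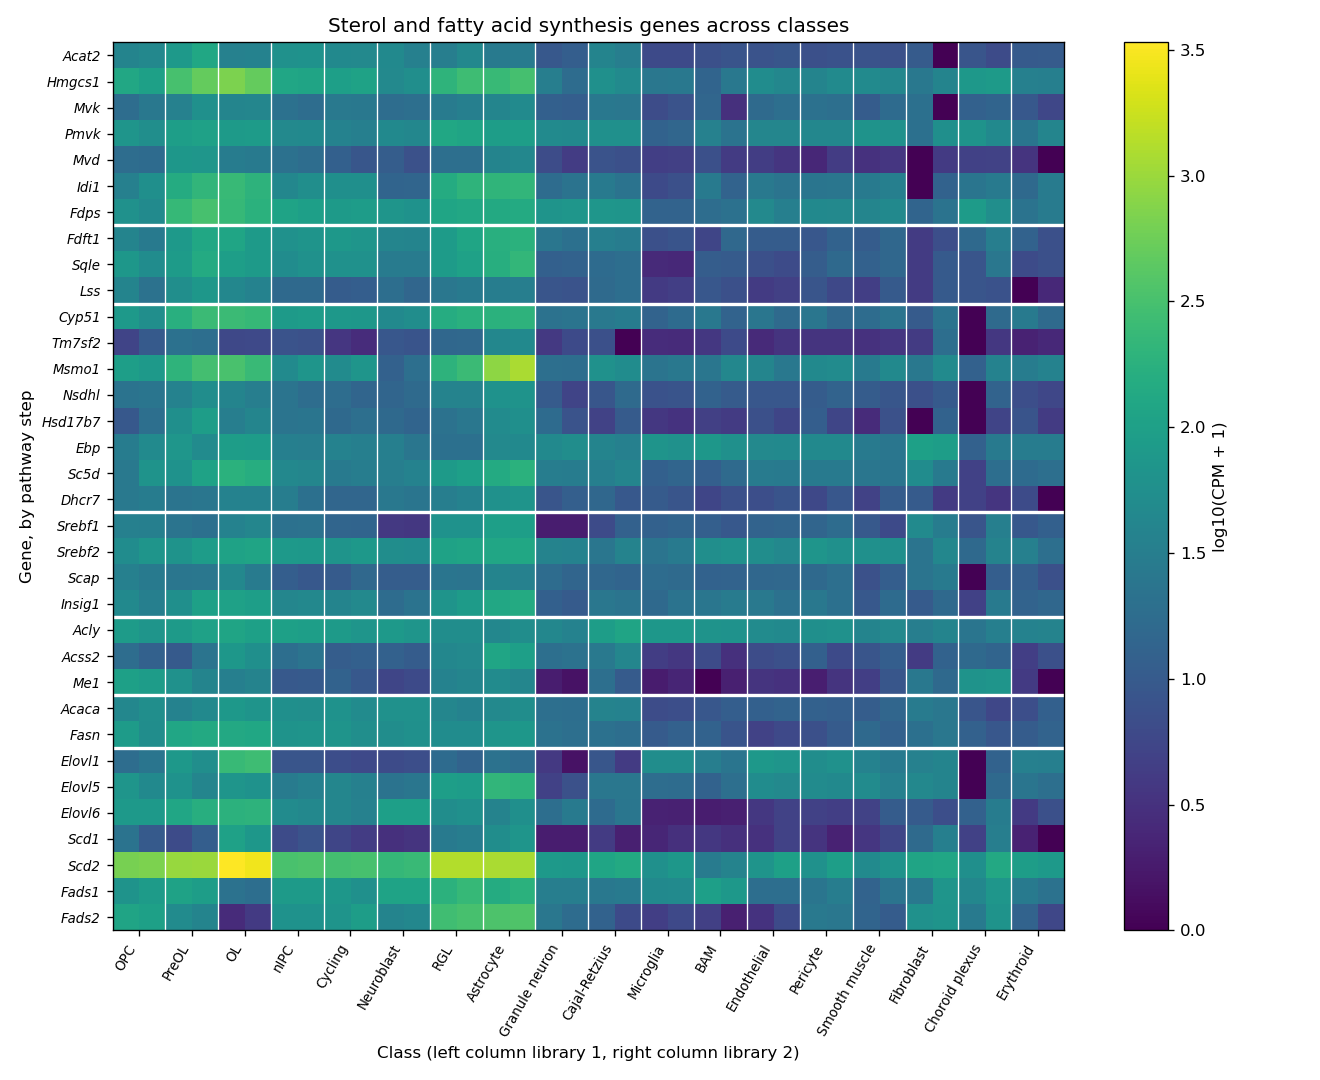
Level of each of the 34 genes (rows, by pathway step, with white lines between steps) in 18 classes (columns, library 1 left and library 2 right in each), as log10(CPM + 1). Msmo1 is brightest in astrocytes, Scd2 is brightest in OL, and Fads2 is bright in astrocytes and RGL and dark in OL.

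For the tests, the UMIs of each class were added up within each library, and 1 edgeR model (quasi-likelihood test) with library as blocking factor was fitted to these sums. Levels beside these tests are scaled CPM, the same unit after TMM scaling, which divides CPM by a factor set for each sum. These factors were 1.43 and 1.3 in OPC, 1.15 and 1.11 in PreOL and 0.723 and 0.725 in OL. The 10 most abundant genes took 25.2% and 24.7% of the UMIs in OL, against 12% and 11.6% in PreOL. In OPC they took 9.61% and 13.1%. Differences are log2 fold changes ± SE over n = 2 libraries per class, and a gene was called at an adjusted p under 0.05 (Benjamini-Hochberg over 14314 genes). One of the libraries is from cKO mice, so the genotype sits within the block. Such p-values rest on how class differences varied between the 2 libraries over all classes fitted, with the spread of other genes drawn on. They do not measure variation between mice. The 5 comparisons share classes, so they are not independent of each other. In bulk sums of this kind, more transcripts per cell and more cells with transcripts cannot be told apart.

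The oligodendrocyte lineage was followed from OPC over PreOL to OL. The sum of OPC in library 1 was the smallest fitted, at 235634 UMIs. Low levels there rest on few UMIs, such as 4 UMIs for Acss2 at 11.9 scaled CPM. Most sterol enzymes were called higher between OPC and PreOL, and most fatty acid enzymes between PreOL and OL. The difference between these steps was not tested, and the first called fewer of all genes (20.4% against 40%). In PreOL over OPC, 20 of the 34 genes were higher and 1 was lower, where 10.5% of all genes tested were higher and 9.95% lower (20.4% called in all). The median difference was 1.20 over the 34 genes and −0.01 over all genes. Of the 18 sterol enzymes 15 were higher and 0 lower, with 3 not past the threshold, and of the 12 fatty acid enzymes 4 were higher and 1 was lower. In OL over PreOL, 21 genes were higher and 5 lower, where 22.4% of all genes were higher and 17.6% lower (40% called in all). The median was 0.86 over the 34 genes and 0.10 over all genes. Here 8 sterol enzymes were higher and 3 lower, and 9 fatty acid enzymes were higher and 2 lower.

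Steps from acetyl-CoA to farnesyl diphosphate were all higher in PreOL than in OPC, 7 of 7 genes. Hmgcs1 (chromosome 13, 119690379 to 119708260 in mm10), which makes HMG-CoA, had 92.3 and 77.5 scaled CPM in OPC, 272 and 446 in PreOL and 933 and 678 in OL. It was higher in PreOL than in OPC by 2.11 ± 0.28 and in OL than in PreOL by 1.19 ± 0.21. The OL over PreOL difference varied between libraries, at 1.77 in library 1 and 0.60 in library 2. In scaled CPM every later stage of Hmgcs1 lay above every earlier one, an order that rests on this scaling. Idi1, the isopentenyl diphosphate isomerase, had 23.8 and 44.04 scaled CPM in OPC, 127 and 189 in PreOL and 333 and 260.0 in OL, with differences of 2.16 ± 0.33 and 0.90 ± 0.18. Fdps, the farnesyl diphosphate synthase, had 41.7 and 36.99 scaled CPM in OPC, 199.6 and 284 in PreOL and 321 and 249 in OL. Its PreOL over OPC difference was 2.66 ± 0.28, while OL over PreOL did not pass (0.21 ± 0.15, adjusted p = 0.299), with the PreOL and OL ranges overlapping.

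Acat2 and Mvd were highest in PreOL among the 3 stages. Acat2, the cytosolic thiolase that makes acetoacetyl-CoA, had 26.8 and 33.5 scaled CPM in OPC, 70.7 and 112 in PreOL and 47.1 and 49.7 in OL, with differences of 1.61 ± 0.33 and −0.95 ± 0.19. Mvd, the mevalonate diphosphate decarboxylase, had 11.9 and 12.3 scaled CPM in OPC, 62.9 and 63.1 in PreOL and 40.1 and 37.2 in OL, with differences of 2.37 ± 0.39 and −0.71 ± 0.19. Pmvk, the phosphomevalonate kinase, had 47.6 and 42.3 scaled CPM in OPC, 81.7 and 92.9 in PreOL and 115 and 116 in OL. It passed both tests (0.99 ± 0.22 and 0.40 ± 0.13), but its second call was lost with DESeq2, with the pair of classes alone, without marker-rich cells and under both other scalings, and stood at −0.25 under total-count scaling (adjusted p = 0.15). Mvk, the mevalonate kinase, had 11.9 and 19.4 scaled CPM in OPC, 29.9 and 51.6 in PreOL and 55.01 and 55.8 in OL, was higher in PreOL than in OPC by 1.36 ± 0.39 and did not pass in OL over PreOL (0.41 ± 0.21, adjusted p = 0.134).

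The enzymes around squalene and lanosterol changed between OPC and PreOL, and 0 of 3 passed between PreOL and OL with edgeR or DESeq2 (1 of 3, Fdft1, at an unadjusted p under 0.05). Fdft1, the squalene synthase, had 26.8 and 21.1 scaled CPM in OPC, 67.6 and 115 in PreOL and 164 and 113 in OL, with a PreOL over OPC difference of 2.02 ± 0.47. Sqle, the squalene epoxidase, had 50.6 and 38.8 scaled CPM in OPC, 73.9 and 128 in PreOL and 132 and 115 in OL, with a difference of 1.28 ± 0.33. Lss, the lanosterol synthase, had 26.8 and 15.9 scaled CPM in OPC, 47.2 and 66.5 in PreOL and 58.9 and 48.9 in OL, with a difference of 1.54 ± 0.37. All of these differences were larger in library 2, at 1.27 in library 1 and 2.39 in library 2 for Fdft1, 0.52 in library 1 and 1.70 in library 2 for Sqle and 0.76 in library 1 and 2.003 in library 2 for Lss. OL over PreOL stood at 0.57 ± 0.24 for Fdft1 (adjusted p = 0.0652), 0.27 ± 0.19 for Sqle (adjusted p = 0.293) and −0.11 ± 0.20 for Lss (adjusted p = 0.702). The libraries had opposite signs there, at 1.27 in library 1 and −0.03 in library 2 for Fdft1, 0.82 in library 1 and −0.16 in library 2 for Sqle and 0.30 in library 1 and −0.46 in library 2 for Lss.

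From lanosterol to cholesterol, 5 of 8 genes were higher in PreOL than in OPC, and 5 were higher and 1 lower in OL than in PreOL. Cyp51, the lanosterol demethylase, had 56.6 and 42.3 scaled CPM in OPC, 148 and 232 in PreOL and 356 and 319.6 in OL, with differences of 2.02 ± 0.25 and 0.82 ± 0.14. The first of these was 1.36 in library 1 and 2.43 in library 2. Msmo1 had 65.5 and 59.9 scaled CPM in OPC, 168 and 271 in PreOL and 457 and 340.1 in OL, with differences of 1.84 ± 0.29 and 0.90 ± 0.21. In scaled CPM both genes stood in the order OPC, PreOL, OL in each library. That order rests on this scaling, and the OL over PreOL calls of both were lost under total-count scaling. Sc5d, the sterol desaturase, had 17.9 and 49.3 scaled CPM in OPC, 53.4 and 97.5 in PreOL and 246 and 217 in OL, with differences of 1.07 ± 0.37 and 1.59 ± 0.20. The PreOL over OPC call of Sc5d had an adjusted p of 0.0463 and was lost under both other scalings, with a minimum of 3000 UMIs and without the library block, and its OL over PreOL difference was 2.18 in library 1 and 1.15 in library 2.

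Ebp and Dhcr7 passed in OL over PreOL but not in PreOL over OPC, and the difference between these steps was not tested. Ebp had 20.8 and 36.99 scaled CPM in OPC, 61.3 and 44.7 in PreOL and 127 and 124 in OL, with 0.75 ± 0.32 (adjusted p = 0.111) for PreOL over OPC and 1.27 ± 0.18 for OL over PreOL. Dhcr7, the dehydrocholesterol reductase that ends a branch of the pathway, had 17.9 and 22.9 scaled CPM in OPC, 18.9 and 20.6 in PreOL and 50.2 and 49.7 in OL, with −0.08 ± 0.47 (adjusted p = 0.966) and 1.33 ± 0.28. Hsd17b7, a sterol ketoreductase, had 5.95 and 14.1 scaled CPM in OPC, 48.7 and 82.6 in PreOL and 43.97 and 54.3 in OL, and was higher in PreOL by 2.63 ± 0.40, a fold that rests on 2 UMIs in OPC of library 1. Nsdhl, a sterol dehydrogenase, had 14.9 and 17.6 scaled CPM in OPC, 31.4 and 47.03 in PreOL and 53.5 and 43.6 in OL and was higher in PreOL by 1.28 ± 0.40. Neither passed in OL over PreOL (−0.45 ± 0.19 for Hsd17b7 and 0.26 ± 0.22 for Nsdhl). Tm7sf2, a sterol reductase, was lower in OL, with 2.98 and 7.05 scaled CPM in OPC (1 UMI in library 1), 17.3 and 16.1 in PreOL and 6.78 and 6.805 in OL. Its OL over PreOL difference was −1.28 ± 0.34, and PreOL over OPC did not pass (1.59 ± 0.58, adjusted p = 0.061).

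Promoters are shown for genes of this branch that rose together in PreOL: Hmgcs1, Idi1, Cyp51 and Msmo1. Windows of 300 bases, from 250 before to 50 after the transcription start, were taken from RefSeq on GRCm38.p6 (the assembly also called mm10) for 28 of the 34 genes, 36 windows in all. No window was at hand for Fdps, Fdft1, Sqle, Scd1, Scd2 and Fads1. A sterol response element (letters TCACNCCAC, the site of SREBPs) was in 1 of 36 windows (2.78%), that of Hmgcs1 at 137 bases before the start, against 1.24% of all 32851 windows. A CCAAT box (letters CCAAT, the site of NF-Y) was in 24 windows (66.7%), against 37.4% of all windows. A GC box (letters GGGCGG) was in 27 windows (75%), against 35.7%. All windows were taken without a filter for protein-coding genes or for expression in these cells. The shares thus do not set like genes against each other. Both strands were searched, no sterol response element overlapped another motif, and a CCAAT box overlapped a GC box in 1 window, of Elovl1. A match is a string of letters and not a measured site. Only these exact letters were searched, so sites with other letters or outside the windows were not counted. In the windows below, 5′ to 3′ on the gene's strand, capitals mark the sterol response element TCACCCCAC and the CCAAT boxes, which read ATTGG where they lie on the other strand. Hmgcs1 is chr13:119690101-119690400 (plus strand), Idi1 chr13:8885356-8885655 (plus), Cyp51 chr5:4104648-4104947 (minus) and Msmo1 chr8:64733529-64733828 (minus).
Hmgcs1: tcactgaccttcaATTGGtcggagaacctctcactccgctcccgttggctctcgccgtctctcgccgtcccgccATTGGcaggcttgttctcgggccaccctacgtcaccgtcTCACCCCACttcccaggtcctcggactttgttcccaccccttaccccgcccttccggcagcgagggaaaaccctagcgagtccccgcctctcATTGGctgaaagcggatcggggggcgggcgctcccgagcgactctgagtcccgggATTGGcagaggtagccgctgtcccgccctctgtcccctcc
Idi1: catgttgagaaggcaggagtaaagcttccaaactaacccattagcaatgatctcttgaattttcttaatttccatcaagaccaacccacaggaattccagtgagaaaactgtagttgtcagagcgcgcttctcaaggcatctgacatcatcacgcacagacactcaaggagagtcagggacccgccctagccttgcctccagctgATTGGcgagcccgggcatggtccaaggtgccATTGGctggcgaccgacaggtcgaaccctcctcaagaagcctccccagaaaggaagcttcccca
Cyp51: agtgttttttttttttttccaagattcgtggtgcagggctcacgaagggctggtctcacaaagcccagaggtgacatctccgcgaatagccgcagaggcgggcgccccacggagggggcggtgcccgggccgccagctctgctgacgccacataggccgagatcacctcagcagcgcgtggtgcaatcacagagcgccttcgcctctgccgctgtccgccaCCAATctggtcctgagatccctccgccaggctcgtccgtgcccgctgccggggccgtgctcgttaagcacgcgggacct
Msmo1: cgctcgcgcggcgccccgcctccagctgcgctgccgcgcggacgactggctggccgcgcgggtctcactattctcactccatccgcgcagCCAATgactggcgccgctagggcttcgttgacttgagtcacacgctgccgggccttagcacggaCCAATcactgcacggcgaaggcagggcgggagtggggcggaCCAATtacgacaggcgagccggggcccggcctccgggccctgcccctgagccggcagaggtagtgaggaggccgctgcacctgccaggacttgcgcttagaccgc

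The control genes mostly differed between PreOL and OL, where 4 of 4 were higher. Srebf1, which encodes the factor best known for fatty acid genes, had 23.8 and 24.7 scaled CPM in OPC, 18.9 and 17.2 in PreOL and 49.01 and 56.5 in OL, with an OL over PreOL difference of 1.56 ± 0.23. Srebf2, which encodes the factor best known for sterol genes, had 35.7 and 52.8 scaled CPM in OPC, 55.02 and 80.3 in PreOL and 150.3 and 155 in OL, with a difference of 1.15 ± 0.15. Scap, the escort of SREBPs to the Golgi, had 23.8 and 21.1 scaled CPM in OPC, 20.4 and 21.8 in PreOL and 59.7 and 39.6 in OL, with a difference of 1.20 ± 0.26. Between OPC and PreOL none of these 3 passed (−0.44 ± 0.37, 0.59 ± 0.25 and −0.07 ± 0.43 in the same order; 1498 of the 14314 genes were higher and 1424 lower). Insig1, which retains SREBPs in the endoplasmic reticulum and is itself an SREBP target, had 32.7 and 24.7 scaled CPM in OPC, 48.7 and 89.5 in PreOL and 141 and 131 in OL. It was higher at both steps (1.38 ± 0.35 and 0.94 ± 0.19), with 0.53 in library 1 and 1.82 in library 2 for the first.

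Supply and synthesis of fatty acids followed. Acss2, which makes acetyl-CoA from acetate, had 11.9 and 8.81 scaled CPM in OPC, 7.86 and 19.5 in PreOL and 100.1 and 78.7 in OL, with an OL over PreOL difference of 2.60 ± 0.28 (3.54 in library 1 and 1.97 in library 2). That fold rests on 5 and 17 UMIs in PreOL. Acly, which makes acetyl-CoA from citrate, had 59.5 and 52.8 scaled CPM in OPC, 72.3 and 92.9 in PreOL and 156 and 139 in OL, with a difference of 0.81 ± 0.16. In scaled CPM both OL values lay above both PreOL values for each of these genes. In plain CPM Acly had 112.8 and 100.8 in OL, against 83.2 and 103.2 in PreOL. Acaca, which makes malonyl-CoA, had 29.8 and 42.3 scaled CPM in OPC, 31.4 and 41.3 in PreOL and 105 and 90.4 in OL, with a difference of 1.40 ± 0.21. Fasn, the fatty acid synthase, had 59.5 and 40.5 scaled CPM in OPC, 105 and 124 in PreOL and 187 and 174 in OL and was higher at both steps (1.28 ± 0.23 and 0.65 ± 0.13). Me1 had 71.4 and 66.9 scaled CPM in OPC, 51.9 and 34.4 in PreOL and 44.4 and 51.6 in OL and passed at neither step (−0.71 ± 0.28, adjusted p = 0.0859; 0.20 ± 0.21, adjusted p = 0.507). Acss2, Acly and Acaca did not pass between OPC and PreOL, at 0.54 ± 0.61, 0.60 ± 0.26 and −0.02 ± 0.34. For Acss2 the libraries had opposite signs, at −0.63 in library 1 and 1.05 in library 2.

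Elongases and desaturases held the widest differences of OL over PreOL, in both directions. Scd2 (chromosome 19, 44293674 to 44306864), a stearoyl-CoA desaturase that makes monounsaturated fatty acids, had 447 and 519.7 scaled CPM in OPC, 844 and 909.6 in PreOL and 4682 and 3931 in OL, and was higher at both steps (0.86 ± 0.13 and 2.30 ± 0.13). Its neighbour and paralog Scd1 (44394455 to 44407879) had 14.9 and 7.05 scaled CPM in OPC, 4.72 and 9.18 in PreOL and 144 and 102 in OL. Scd1 was higher in OL than in PreOL by 4.07 ± 0.39 (4.71 in library 1 and 3.39 in library 2), a fold that rests on 3 and 8 UMIs in PreOL, and did not pass between OPC and PreOL (−0.45 ± 0.89, adjusted p = 0.798). Both desaturases stood highest in OL in each library. The labels do not say how reads that match both paralogs were counted, so the split between them is uncertain. Elovl1 had 11.9 and 17.6 scaled CPM in OPC, 66.02 and 49.3 in PreOL and 328 and 376 in OL, with differences of 1.87 ± 0.37 and 2.64 ± 0.16. Elovl6 had 56.6 and 61.7 scaled CPM in OPC, 105 and 148 in PreOL and 253 and 259 in OL, with 1.12 ± 0.25 and 1.01 ± 0.15. Each of these 2 elongases stood in the order OPC, PreOL, OL in both libraries.

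Genes of polyunsaturated synthesis did not follow that order. Fads2 (chromosome 19, 10062765 to 10101746), the desaturase that opens polyunsaturated fatty acid synthesis, fell at both steps, with 80.4 and 77.5 scaled CPM in OPC, 42.4 and 34.4 in PreOL and 2.32 and 4.19 in OL. The differences were −1.05 ± 0.25 and −3.50 ± 0.30 (−4.16 in library 1 and −3.03 in library 2 for the second). Fads1 (10182888 to 10196877), the desaturase that acts after it, had 44.7 and 65.2 scaled CPM in OPC, 92.7 and 81.4 in PreOL and 28.3 and 24.3 in OL. It was lower in OL than in PreOL, with a difference of −1.71 ± 0.20, and did not pass before that (0.60 ± 0.27, adjusted p = 0.13). Elovl5, the elongase of the same route, had 47.6 and 35.2 scaled CPM in OPC, 53.4 and 35.6 in PreOL and 95.5 and 84.3 in OL. It was higher in OL than in PreOL by 1.05 ± 0.19, unlike its desaturases, and stood at 0.11 ± 0.30 (adjusted p = 0.868) in PreOL over OPC.

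Among genes not called, Fdps, Nsdhl and Me1 had opposite signs in the libraries in OL over PreOL, as had Dhcr7, Scap, Acaca and Scd1 in PreOL over OPC. Of the 34 log2 fold changes, 20 were greater in library 2 in PreOL over OPC, and 27 were greater in library 1 in OL over PreOL. The PreOL of library 2 also held more of the OL markers, and the part of this in those differences was not tested. Scaling bears on the counts of calls. Under total-count scaling, 10 genes were higher and 8 lower in OL over PreOL, against 21 and 5, while the median over all genes moved to −0.50 from 0.10 and that over the 34 genes to 0.21. The calls of Idi1, Cyp51, Msmo1, Dhcr7, Scap, Insig1, Acly, Fasn, Elovl5 and Elovl6 were lost there. Of all genes called, 23.7% were higher in OL there, against 56%. Between OPC and PreOL total-count scaling left 17 members higher and 2 lower, with 32.2% of all called genes higher, against 51.3%. The median over all genes was −0.239 there, against −0.006 under TMM scaling. With 33 abundant genes left out of total-count scaling, it was −0.246 in PreOL over OPC and −0.214 in OL over PreOL. What else set these scalings apart was not tested. Median depth was 23807 and 21762.5 UMIs in OL, against 12603.5 and 12286 UMIs in PreOL, of whose 103 cells 37 lay in a cluster of shallow cells (median 1973 UMIs). A list of 20 genes of stress during dissociation and early response had 2 higher and 13 lower in OL than in PreOL (10% and 65%, against 22.4% and 17.6% of all genes). The part of depth and stress in the differences was not tested.

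**Figure D2:**
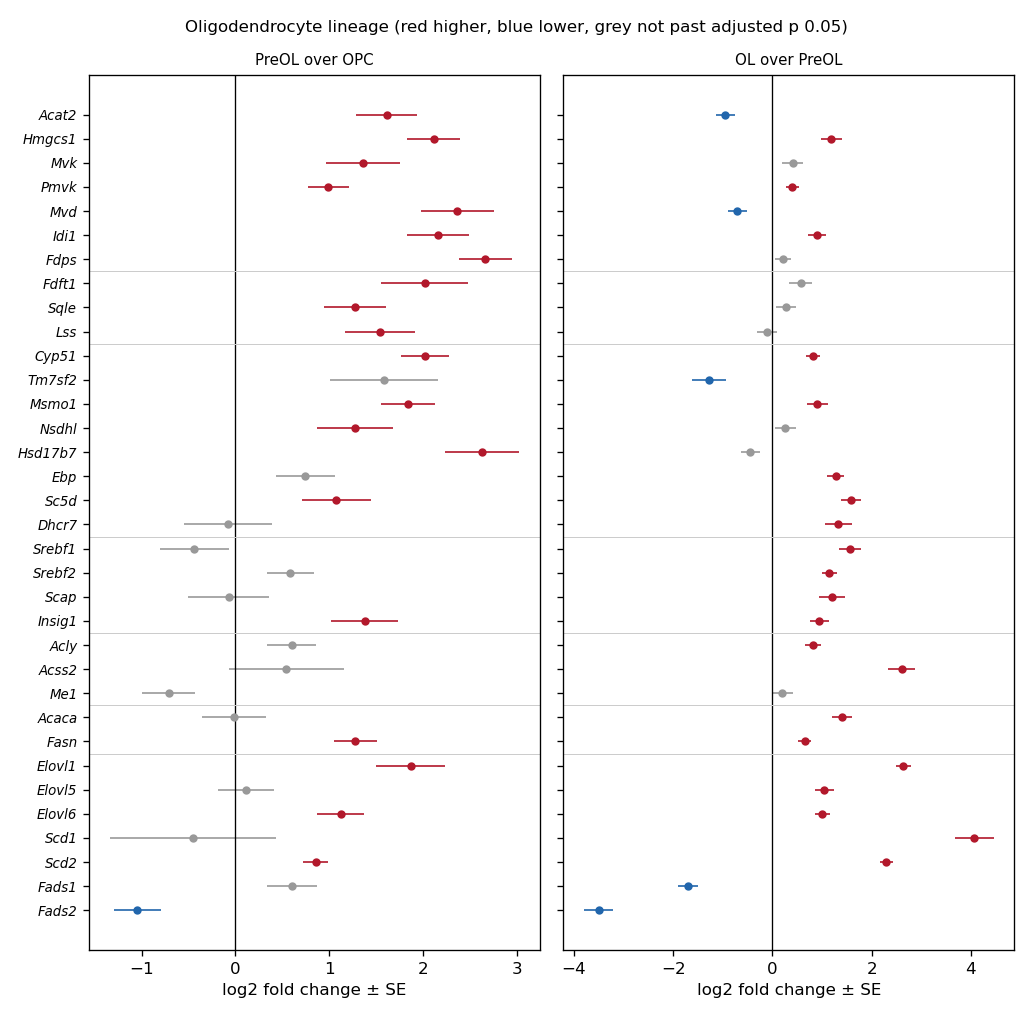
Log2 fold change ± SE of each of the 34 genes (rows, by pathway step) for PreOL over OPC (left) and OL over PreOL (right), n = 2 libraries per class. Red marks genes called higher, blue called lower and grey not past the threshold; the left panel is red over the sterol steps (15 of 18 enzymes), and the right panel holds its largest values among elongases and desaturases, from −3.50 for Fads2 to 4.07 for Scd1.

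Mature oligodendrocytes were next set against astrocytes, the other glial class with much cholesterol synthesis. The sterol enzymes were split: of the 7 genes up to farnesyl diphosphate 3 were higher and 1 lower in OL, and of the 8 from lanosterol on 2 were higher and 5 lower. Both enzymes of fatty acid synthesis were higher in OL, and the desaturases Fads1 and Fads2 and the elongase Elovl5 were lower. In OL over astrocytes 13 of the 34 genes were higher and 14 lower, where 34.3% of all genes were higher and 32% lower (66.3% called in all), shares close to those of the 34 genes. The median difference was 0.06 over the 34 genes and 0.01 over all genes. Of the 18 sterol enzymes 6 were higher and 8 lower, and of the 12 fatty acid enzymes 7 were higher and 4 lower.

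Fads2 differed most. It had 2.32 and 4.19 scaled CPM in OL, against 407 and 455 in astrocytes, a difference of −7.02 ± 0.16 (adjusted p = 1.33e-16). The free RNA of the suspension held 61.5 and 51.1 CPM of Fads2. With each cell thinned to 1000 UMIs, 0.344% (exact Clopper-Pearson 95% interval 0.0087% to 1.90%) and 0.562% (0.0681% to 2.02%) of OL had a UMI of Fads2. In astrocytes the share was 30.03% (26.3% to 33.96%) and 30.4% (27% to 33.98%) (medians of 23807 and 21762.5 UMIs in OL and 7080.5 and 6187 UMIs in astrocytes before thinning). Microglia, which do not descend from the neural lineage, held 3.53 and 5.02 CPM of Fads2, and OL held 1.68 and 3.03 CPM on the same plain scale. Fads1 had 28.3 and 24.3 scaled CPM in OL, against 173 and 222 in astrocytes (−2.91 ± 0.14). Elovl5 had 95.5 and 84.3 in OL, against 247 and 239 in astrocytes (−1.44 ± 0.11). All 3 genes of the polyunsaturated route were thus lower in OL, with no overlap between the classes.

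The other elongases and both stearoyl-CoA desaturases were higher in OL. Elovl1 had 328 and 376 scaled CPM in OL, against 24.4 and 21.6 in astrocytes (3.94 ± 0.13). Elovl6 had 253 and 259 in OL, against 43.6 and 70.8 in astrocytes (2.17 ± 0.13). Scd2 had 4682 and 3931 in OL, against 1408 and 1476 in astrocytes (1.58 ± 0.12). Scd1 differed less, with 144 and 102 in OL against 63.1 and 83.9 in astrocytes (0.74 ± 0.16), and DESeq2 did not call it. Fasn had 187 and 174 scaled CPM in OL, against 80.4 and 91.01 in astrocytes (1.08 ± 0.11), and Acaca had 105 and 90.4 against 52.7 and 66.5 (0.71 ± 0.13). Acetyl-CoA supply was divided: Acly was higher in OL, with 156 and 139 against 50.2 and 64.97 in astrocytes (1.35 ± 0.12), and Acss2 lower, with 100.1 and 78.7 against 137 and 122 (−0.54 ± 0.12). Me1 did not pass (−0.20 ± 0.14, adjusted p = 0.204).

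Among the early sterol steps, Hmgcs1 had 933 and 678 scaled CPM in OL, against 283 and 381 in astrocytes (1.31 ± 0.20). Fdps had 321 and 249 in OL, against 164 and 178 in astrocytes (0.74 ± 0.13), and Acat2 had 47.1 and 49.7 against 32.4 and 35.5 (0.51 ± 0.16). Mvd was lower in OL, with 40.1 and 37.2 against 44.5 and 53.1 in astrocytes (−0.34 ± 0.14). Mvk, Pmvk and Idi1 did not pass (0.07 ± 0.13, 0.04 ± 0.09 and 0.25 ± 0.14). Around squalene, Fdft1 had 164 and 113 scaled CPM in OL, against 197 and 221 in astrocytes (−0.59 ± 0.16), and Sqle had 132 and 115 against 189 and 269.6 (−0.87 ± 0.14), both lower. Lss was higher, with 58.9 and 48.9 in OL against 35.7 and 39.5 in astrocytes (0.52 ± 0.15), a call lost with DESeq2 and under both other scalings.

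In the lanosterol branch Tm7sf2 and Msmo1 were lowest in OL relative to astrocytes. Tm7sf2 had 6.78 and 6.805 scaled CPM in OL, against 49.9 and 58.1 in astrocytes (−2.99 ± 0.18). Msmo1 had 457 and 340.1 in OL, against 990.5 and 1485 in astrocytes (−1.59 ± 0.19), with −1.12 in library 1 and −2.13 in library 2. Nsdhl (53.5 and 43.6 against 72.2 and 81.02; −0.66 ± 0.13), Dhcr7 (50.2 and 49.7 against 70.8 and 82.9; −0.62 ± 0.14) and Hsd17b7 (43.97 and 54.3 against 57.9 and 70.5; −0.39 ± 0.13) were also lower in OL. Cyp51 had 356 and 319.6 scaled CPM in OL, against 209.9 and 241 in astrocytes (0.59 ± 0.12), and Ebp had 127 and 124 against 52.4 and 58.1 (1.18 ± 0.12), both higher in OL. Sc5d did not pass (0.27 ± 0.14, adjusted p = 0.0979). Of the control genes, Srebf1 was lower in OL, with 49.01 and 56.5 scaled CPM against 115 and 119 in astrocytes (−1.15 ± 0.10), and Insig1 narrowly so, with 141 and 131 against 152 and 181 (−0.29 ± 0.12, adjusted p = 0.0494). Srebf2 (0.01 ± 0.10) and Scap (0.16 ± 0.14) did not pass.

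The calls of Mvd, Hsd17b7 and Insig1 were each lost in at least 1 alternative, and that of Acat2 was lost with DESeq2 and under both other scalings. DESeq2 did not call Scd1. Mvk, Pmvk, Idi1, Sc5d, Srebf2, Scap and Me1, none of them called, had opposite signs in the libraries, and Pmvk and Srebf2 were called lower in OL with abundant genes left out of total-count scaling. Median depth was 23807 and 21762.5 UMIs in OL, against 7080.5 and 6187 UMIs in astrocytes, and median mitochondrial shares were 6.4% and 7.18% against 8.73% and 10.4%. Their part in these differences was not tested.

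**Figure D3:**
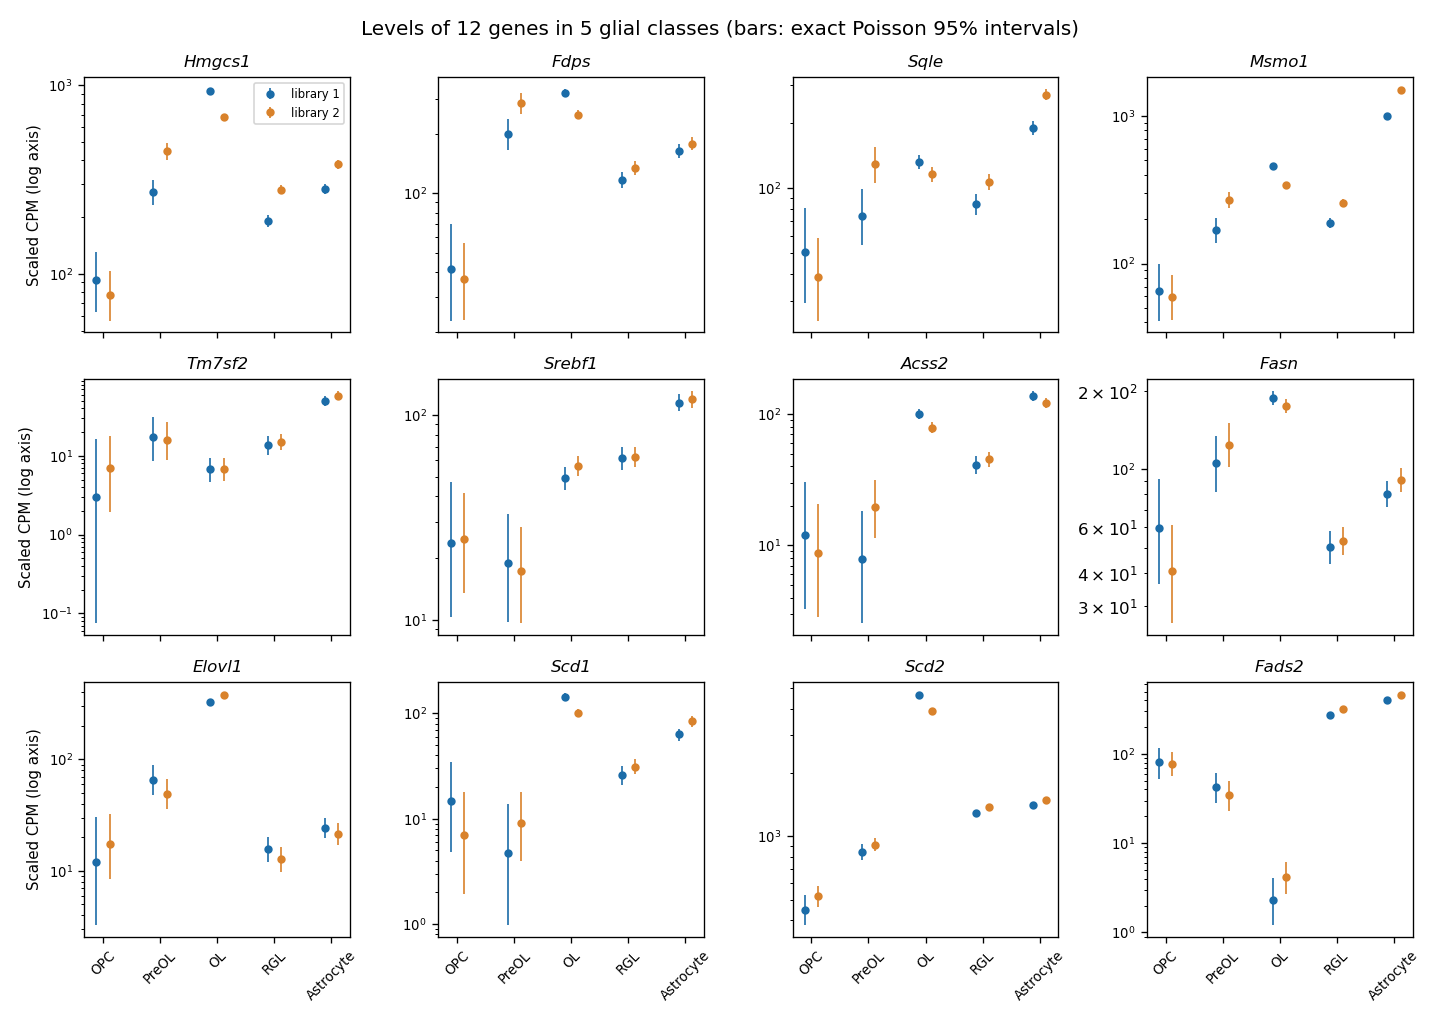
Scaled CPM (log axis) of 12 genes in OPC, PreOL, OL, RGL and astrocytes, blue for library 1 and orange for library 2, with exact Poisson 95% intervals that cover counting error only. Hmgcs1 and Elovl1 stand highest in OL, Fads2 falls to 2.32 and 4.19 scaled CPM in OL, and Msmo1 stands at 990.5 and 1485 in astrocytes against 188 and 258 in RGL.

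Stem cells were compared with astrocytes, the mature cells of the same astroglial kind, with which they share many transcripts. Most sterol and fatty acid genes were lower in the stem cells. In RGL over astrocytes 0 of the 34 genes were higher and 27 lower, where 19.6% of all genes were higher and 18.9% lower (38.5% called in all). The median difference was −0.77 over the 34 genes and 0.04 over all genes. Of the 18 sterol enzymes 15 were lower, of the 4 control genes 4, and of the 12 fatty acid enzymes 8. At an unadjusted p under 0.05 in edgeR 0 were higher and 28 lower, and DESeq2 called 0 higher and 26 lower.

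Msmo1 differed most, with 188 and 258 scaled CPM in RGL, against 990.5 and 1485 in astrocytes (−2.46 ± 0.20, adjusted p = 1.76e-08). Tm7sf2 had 13.6 and 15.03 in RGL, against 49.9 and 58.1 in astrocytes (−1.91 ± 0.16). Ebp had 18.8 and 19.4 in RGL, against 52.4 and 58.1 in astrocytes (−1.53 ± 0.16). In all these genes both RGL values lay below both astrocyte values. Hsd17b7 had 20.2 and 24.9 against 57.9 and 70.5 in astrocytes (−1.51 ± 0.15), Dhcr7 30.9 and 37.1 against 70.8 and 82.9 (−1.17 ± 0.15) and Sc5d 80.6 and 100.3 against 167 and 222 (−1.10 ± 0.15). Nsdhl had 36.1 and 37.7 in RGL, against 72.2 and 81.02 in astrocytes (−1.05 ± 0.14), and Cyp51 had 148 and 179 against 209.9 and 241 (−0.46 ± 0.12). All 8 genes from lanosterol to cholesterol were thus lower in RGL, though the call of Cyp51 was lost under total-count scaling.

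Upstream, 7 of the 10 genes were lower in RGL. Sqle had 84.02 and 106 scaled CPM in RGL, against 189 and 269.6 in astrocytes (−1.26 ± 0.14), Fdft1 84.5 and 121 against 197 and 221 (−1.02 ± 0.17) and Lss 23.6 and 27.8 against 35.7 and 39.5 (−0.54 ± 0.17). Mvd had 18.3 and 18.9 in RGL, against 44.5 and 53.1 in astrocytes (−1.39 ± 0.16), and Mvk had 27.7 and 32.5 against 46.1 and 59.4 (−0.80 ± 0.15). Idi1 had 146 and 202 in RGL, against 238 and 263 in astrocytes (−0.53 ± 0.15), and Fdps had 116 and 134 against 164 and 178 (−0.44 ± 0.14). Acat2, Hmgcs1 and Pmvk did not pass: Acat2 had 30.4 and 43.9 in RGL against 32.4 and 35.5 in astrocytes (0.14 ± 0.17), Hmgcs1 191 and 279 against 283 and 381 (−0.50 ± 0.20, adjusted p = 0.0618) and Pmvk 122 and 118 against 108 and 117 (0.09 ± 0.10). Total-count scaling turned Pmvk to a call of higher.

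The control genes were all lower in RGL, though the call of Srebf2 was lost under total-count scaling. Insig1 had 64.1 and 86.3 scaled CPM in RGL, against 152 and 181 in astrocytes (−1.14 ± 0.13), Srebf1 61.2 and 62.4 against 115 and 119 (−0.92 ± 0.10), Scap 21.98 and 22.04 against 44.5 and 43.1 (−0.98 ± 0.17) and Srebf2 105 and 116 against 145 and 159 (−0.46 ± 0.10). Among fatty acid genes, Acss2 had 41.1 and 45.3 in RGL, against 137 and 122 in astrocytes (−1.57 ± 0.14), Elovl5 92.9 and 88.8 against 247 and 239 (−1.42 ± 0.11) and Scd1 25.9 and 31.3 against 63.1 and 83.9 (−1.35 ± 0.19). Fasn (50.3 and 52.9 against 80.4 and 91.01; −0.73 ± 0.12), Acaca (40.05 and 36.7 against 52.7 and 66.5; −0.64 ± 0.14), Me1 (35.1 and 40.6 against 59.01 and 51.6; −0.54 ± 0.14) and Elovl1 (15.7 and 12.8 against 24.4 and 21.6; −0.70 ± 0.19) were lower by less. Fads2 had 270.4 and 319 scaled CPM in RGL, against 407 and 455 in astrocytes (−0.55 ± 0.10), and a UMI of it was found in 24.7% and 27.5% of RGL thinned to 1000 UMIs. Scd2 (−0.12 ± 0.12), Fads1 (0.09 ± 0.11), Elovl6 (−0.05 ± 0.15) and Acly (−0.14 ± 0.14) did not pass.

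Under total-count scaling 2 genes, Pmvk and Fads1, were higher and 20 lower in RGL, while the median over all genes moved to 0.32 from 0.04 and the share of higher among all called genes to 73.1% from 50.8%. The calls of Idi1, Fdps, Lss, Cyp51, Srebf2, Me1 and Elovl1 were lost there. Fdps was not called by DESeq2 or with abundant genes left out of total-count scaling, and a mitochondrial limit of 10% ended the calls of Lss and Elovl1. Acat2, Acly and Elovl6, not called, had opposite signs in the libraries. Of the 20 stress genes, 14 were higher and 0 lower in RGL than in astrocytes (70% and 0%, against 19.6% and 18.9% of all genes). Median depths were 6812 and 6402 UMIs in RGL, against 7080.5 and 6187 UMIs in astrocytes, and median mitochondrial shares 6.74% and 7.79% against 8.73% and 10.4%. Stress genes and mitochondrial share moved with the result, and their part in it was not tested. A shallow cluster of 576 cells led by Mt2, Mt1 and Aldoc stayed unnamed, and 230 RGL cells lay in a cluster of shallow cells (median 1816 UMIs).

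Stem cells were last set against their committed progeny, the intermediate progenitors and neuroblasts summed together. Most of the genes were lower in the progeny, and Acly, Acaca and Ebp were higher. In progeny over RGL 3 of the 34 genes were higher and 28 lower, where 31.2% of all genes were higher and 31.1% lower (62.4% called in all). The median difference was −1.22 over the 34 genes and 0.02 over all genes. Of the 18 sterol enzymes 1 was higher and 16 lower, and 4 of 4 control genes were lower.

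Msmo1 had 29.7 and 40.5 scaled CPM in progeny, against 188 and 258 in RGL (−2.67 ± 0.21). Idi1 had 27.02 and 31.8 in progeny, against 146 and 202 in RGL (−2.56 ± 0.16), and Hmgcs1 had 81.2 and 79.7 against 191 and 279 (−1.53 ± 0.21). Srebf1 had 11.4 and 11.01 in progeny, against 61.2 and 62.4 in RGL (−2.45 ± 0.12). Of the fatty acid genes, Scd1 (3.68 and 4.36 against 25.9 and 31.3; −2.84 ± 0.25), Fads2 (47.4 and 48.01 against 270.4 and 319; −2.62 ± 0.10), Me1 (6.32 and 6.65 against 35.1 and 40.6; −2.55 ± 0.17) and Scd2 (261 and 278 against 1287 and 1369.7; −2.30 ± 0.13) were lowest relative to RGL. Both progeny values lay below both RGL values in each of these 8 genes. Going the other way, Acly had 82.8 and 75.6 scaled CPM in progeny, against 51.3 and 53.3 in RGL (0.60 ± 0.12), Acaca 53.2 and 53.3 against 40.05 and 36.7 (0.48 ± 0.13) and Ebp 29.3 and 25.6 against 18.8 and 19.4 (0.52 ± 0.15). DESeq2 did not call Acaca. Fasn (0.12 ± 0.11), Elovl6 (0.25 ± 0.13) and Acat2 (0.34 ± 0.15, adjusted p = 0.0539) did not pass. The other 20 genes called lower lay between −0.40 for Hsd17b7, a call lost in 5 alternatives, and −1.86 for Elovl5. Some genes differed within the progeny, so their summed level is an average of unlike parts. Elovl6 had 95.8 and 98.7 CPM in neuroblasts and 50.2 and 44.1 CPM in intermediate progenitors. Going the other way, Srebf1 had 2.89 and 2.77 CPM in neuroblasts and 19.6 and 20.7 CPM in intermediate progenitors. Insig1 had 16.9 and 20.9 against 41.2 and 43.7 CPM in the same order. A separate class of dividing cells was not part of the progeny sum.

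**Figure D4:**
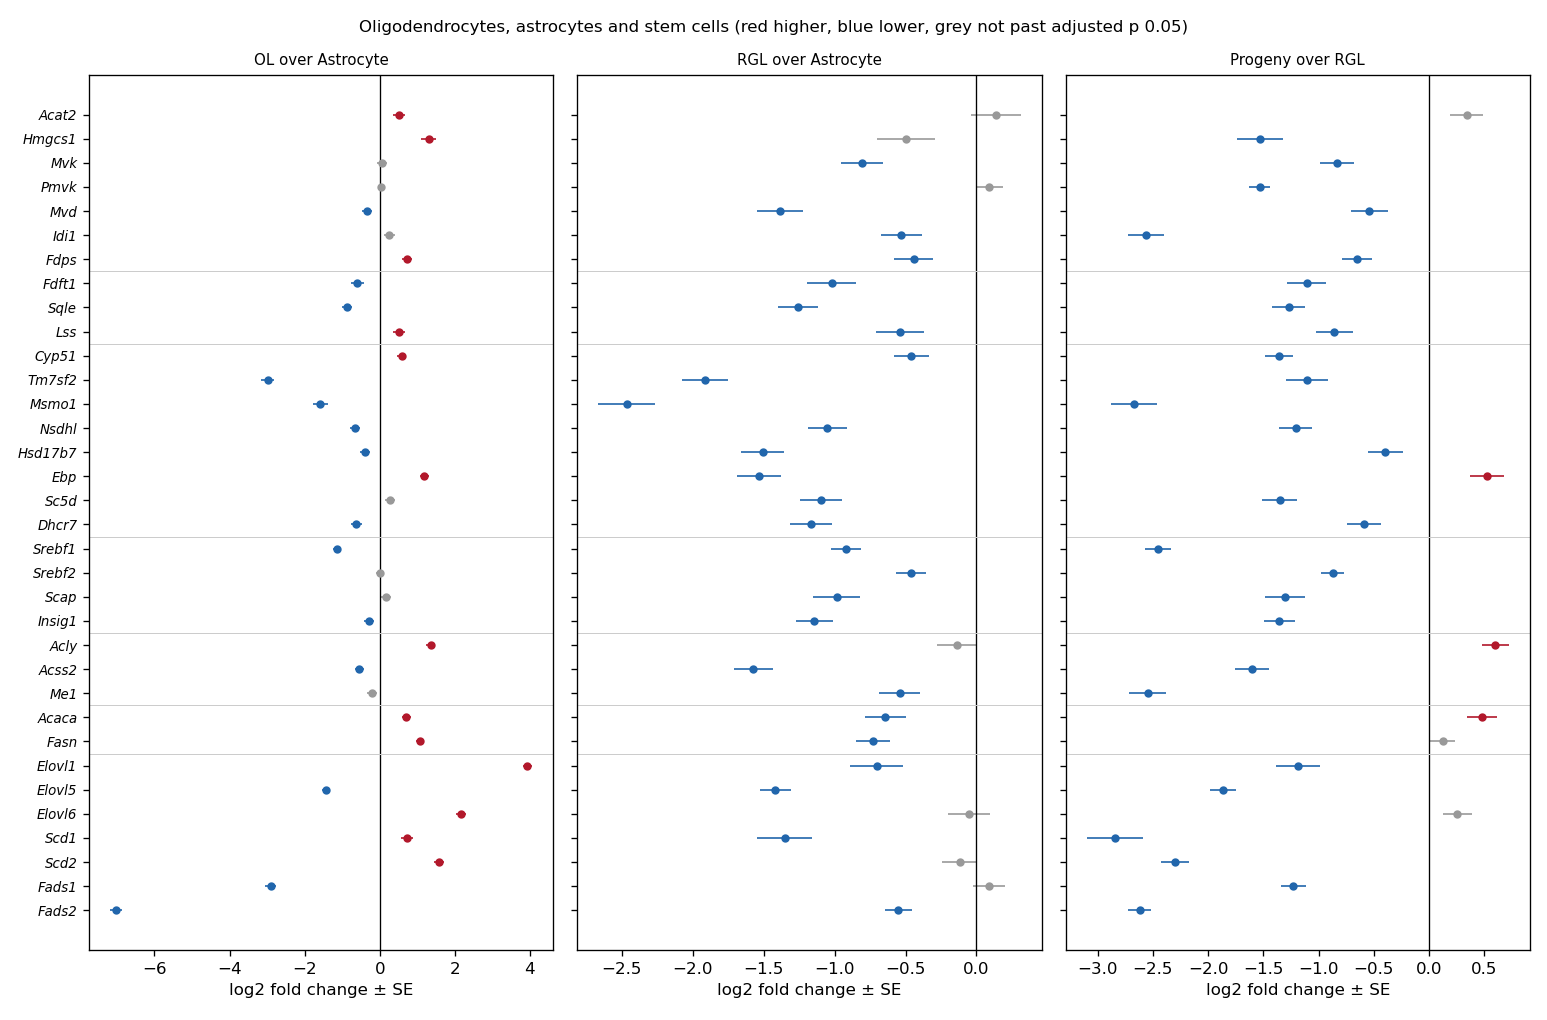
Log2 fold change ± SE of each of the 34 genes (rows, by pathway step) for OL over astrocytes, RGL over astrocytes and progeny over RGL, n = 2 libraries per class, with red higher, blue lower and grey not past the threshold. The left panel is split (13 higher, 14 lower), and the middle (27 lower) and right (28 lower) panels lie mostly left of 0.

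Within the mature oligodendrocytes a finer clustering gave a pair of clusters, 1 led by Opalin, Mag and Tspan2 (115 and 135 cells) and 1 led by Anln, Pex5l and Ermn (171 and 206 cells). These values are plain CPM with no test, since clusters of 1 class were not fitted. Scd2 had 3709 and 3169 CPM in the Anln-led cluster and 3004 and 2557 CPM in the Opalin-led cluster. Scd1 had 129 and 93.1 CPM in the Anln-led and 76.2 and 52.3 CPM in the Opalin-led cluster, and Elovl5 had 81.98 and 78.5 and 53.8 and 40.4 CPM in the same order. All 3 were higher in the Anln-led cluster in each library, while Elovl6 (172 and 148 CPM against 196 and 240.4 CPM) and Elovl1 (219 and 253 CPM against 258 and 301 CPM) were lower there. At the same finer resolution the shallow cluster led by Mt2 and Mt1 (340 and 231 cells, median 1807 UMIs) counted as astrocytes. It held 374 and 426 CPM of Msmo1, 113 and 81.6 CPM of Cyp51 and 354 and 446 CPM of Hmgcs1. The larger deep astrocyte cluster (302 and 355 cells) held 896 and 1212 CPM of Msmo1, 181 and 175 CPM of Cyp51 and 241 and 299 CPM of Hmgcs1, so the genes did not differ in 1 direction.

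Other lipid genes were taken from lists chosen by pathway, also with earlier results of these data known. Their counts stand against the shares of all genes called. Of 12 genes of myelin sphingolipid synthesis, 5 were higher and 0 lower in PreOL over OPC, and 8 higher and 2 lower in OL over PreOL. Of all genes, 10.5% were higher and 9.95% lower in PreOL over OPC, and 22.4% higher and 17.6% lower in OL over PreOL. Ugt8a, which makes galactosylceramide, had 113 and 141 scaled CPM in OPC, 786 and 900.4 in PreOL and 2664 and 2821 in OL (2.72 ± 0.16 and 1.70 ± 0.13). Fa2h, the fatty acid hydroxylase of myelin lipids, had 20.8 and 19.4 scaled CPM in OPC, 207 and 242 in PreOL and 1113 and 1070.4 in OL (3.50 ± 0.23 and 2.28 ± 0.13). Cers2, the ceramide synthase of very long chains, had 26.8 and 26.4 scaled CPM in OPC, 84.9 and 89.5 in PreOL and 814 and 840.3 in OL, with 3.24 ± 0.12 for OL over PreOL. In OL over astrocytes 9 of the 12 were higher and 1 lower, where 34.3% of all genes were higher and 32% lower. In RGL over astrocytes 1 was higher and 4 lower (all genes 19.6% and 18.9%), led by Sptlc1, a serine palmitoyltransferase subunit (−0.98 ± 0.13), and in progeny over RGL 4 were higher and 6 lower (all genes 31.2% and 31.1%), led by Degs1, a ceramide desaturase (−2.73 ± 0.11).

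Of 17 other genes of fatty acid synthesis and supply, 6 were higher and 0 lower in PreOL over OPC (35.3% and 0%, against 10.5% and 9.95% of all genes), and 7 higher and 3 lower in OL over PreOL (41.2% and 17.6%, against 22.4% and 17.6%). Elovl7, an elongase of long saturated chains, had 5.95 and 21.1 scaled CPM in OPC, 266 and 252 in PreOL and 348 and 457 in OL (4.09 ± 0.29 for PreOL over OPC). The size of that fold rests on few UMIs in OPC of library 1. Idh1, a cytosolic source of NADPH, was highest in PreOL among the 3 stages, with 41.7 and 47.6 scaled CPM in OPC, 307 and 248 in PreOL and 106 and 86.7 in OL (2.59 ± 0.20 and −1.52 ± 0.12). Mid1ip1, a regulator of acetyl-CoA carboxylase, was higher in OL than in PreOL by 2.24 ± 0.18. Against astrocytes, 7 of the 17 were higher and 6 lower in OL (41.2% and 35.3%), near the 34.3% and 32% of all genes. In RGL over astrocytes 1 was higher and 9 lower (5.88% and 52.9%, against 19.6% and 18.9% of all genes). In progeny over RGL 3 were higher and 7 lower (17.6% and 41.2%, against 31.2% and 31.1%). Elovl2, an elongase of polyunsaturated chains, had 3.93 and 5.56 scaled CPM in RGL, against 115 and 114 in astrocytes (−4.57 ± 0.21). Hacd2, a dehydratase of the elongation cycle, had 55.7 and 51.9 in RGL, against 620.0 and 566 in astrocytes (−3.47 ± 0.16), and Hacd3 had 65.96 and 84.8 against 278 and 347 (−2.05 ± 0.12).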

How the data were processed

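The authors deposited raw UMI counts per gene and barcode in 1 unfiltered matrix. Per the submitters' processing notes, the tools were Cell Ranger 4.0.0 and Scanpy 1.7.0 and the build mm10. How reads shared with pseudogenes were counted is not given in these sources. The 34 genes and the other lists were chosen with earlier results of these data known. Barcodes with at least 1000 UMIs, 500 genes and at most 20% mitochondrial UMIs were kept, and 226 and 252 doublets (Scrublet in scanpy 1.11.5) removed. Cells were clustered (Leiden, resolution 1) without mitochondrial, sex-linked or listed genes. Clusters were named from markers of 26 classes, each needing 3 markers in 25% of cells; 1 cluster mixing OPC and PreOL markers was split at resolution 0.5 after its markers were seen. In all, 1056 cells stayed unnamed. Sums per class (235634 to 11449978 UMIs) were fitted in R 4.3.3 by edgeR 4.0.16 with TMM, filterByExpr and a library block (5 residual degrees of freedom), and DESeq2 1.42.0 was an alternative. Intervals cover counting error only. All 34 genes are accounted for in pathway order, with values in full where called in OL over PreOL, OL over astrocytes or RGL over astrocytes. Of each other list, counts and up to 3 genes by smallest adjusted p are given. The test was tested on simulated OL minus PreOL counts of 13610 genes: 47% of genes changed by a log2 fold of 1 and 77.3% of those changed by 2 were recovered. Only 100 and 97 genes were changed by these sizes, all classes otherwise shared 1 mean profile, and no library effect was simulated. In the real comparison 40% of genes were called, so these rates may not hold for it. The comparison of cKO with control was not analysed here.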

Additional observations from a re-analysis of the deposited data

How the results depend on the processing

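The alternatives were total-count scaling, DESeq2, no low-count filter, no library block, each pair of classes alone, a mitochondrial limit of 10%, a minimum of 3000 UMIs, Leiden resolution 2, free RNA subtracted from the levels and each library alone, with 2 chosen after seeing the data: total-count scaling without 33 abundant genes, and without cells rich in erythroid or microglial markers. No paired analysis was possible because each genotype has 1 library and suffixes are not tied to genotype; the library block pairs classes of 1 library, and without it the counts stayed within 1.5 times. Of single-gene results, 124 of 170 kept direction and side of the threshold under total-count scaling, 146 with abundant genes left out, and 157 to 166 under the other refits. Every called gene kept its sign in each library alone, but the calls came from these same libraries, so this is no independent check. Of the 170 single-gene differences, 92 in library 1 alone and 78 in library 2 alone lay at least an SE from the fit. Subtracting free RNA moved no summed level by more than its interval. With abundant genes left out, 40.8% of all genes called in OL over astrocytes were higher, against 51.7%, and 36.8% in OL over PreOL, against 56%; 32% in PreOL over OPC, against 51.3%.

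Counts that moved were these. Total-count scaling gave 10 higher and 8 lower in OL over PreOL, 2 lower in PreOL over OPC, 2 higher in RGL over astrocytes and 5 higher in progeny over RGL. Abundant genes left out, or the pair alone, gave 2 lower in PreOL over OPC. No low-count filter, or the pair alone, gave 5 higher in progeny over RGL. The summed sterol enzymes of astrocytes were 2464.9 CPM in library 1 and 3067.8 CPM in library 2 at resolution 2, and 3042.2 CPM in library 2 with the 10% limit, which gave 1760.8 CPM in RGL of library 2. Without thinning, 3.78% and 5.34% of OL, 73.3% and 75.6% of RGL and 87.5% and 85.5% of astrocytes had a Fads2 UMI.

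Signs turned for genes whose main differences reached up to 0.57, that of Fdft1 in OL over PreOL, where Mvk stood at 0.41 and Pmvk at 0.40. The cause was not tested beyond the settings' own construction. Total-count scaling gave, for OL over PreOL, Mvk −0.235, Pmvk −0.248, Fdps −0.43 (adjusted p = 0.024), Fdft1 −0.08, Sqle −0.37, Nsdhl −0.38 and Me1 −0.44; for PreOL over OPC, Elovl5 −0.15; for OL over astrocytes, Mvk −0.11, Pmvk −0.15, Srebf2 −0.181 and Scap −0.026; for RGL over astrocytes, Acly 0.14, Elovl6 0.23 and Scd2 0.16. With abundant genes left out, OL over PreOL was −0.144 for Fdps, −0.082 for Sqle, −0.091 for Nsdhl and −0.155 for Me1, Elovl5 was −0.15 in PreOL over OPC, Elovl6 0.057 in RGL over astrocytes and Fasn −0.003 in progeny over RGL. OL over astrocytes was then −0.20 for Mvk, −0.24 for Pmvk, −0.025 for Idi1, −0.01 for Sc5d, −0.27 for Srebf2 and −0.11 for Scap. DESeq2 gave OL over astrocytes of −0.11 for Mvk, −0.15 for Pmvk, −0.184 for Srebf2 and −0.027 for Scap. Resolution 2 gave −0.012 for Mvk and −0.047 for Pmvk in OL over astrocytes, 0.025 for Acaca in PreOL over OPC and 0.022 for Elovl6 in RGL over astrocytes. The 10% limit gave 0.006 for Acaca in PreOL over OPC, and 0.10 for Acly, 0.029 for Elovl6 and 0.014 for Scd2 in RGL over astrocytes. Without a low-count filter OL over astrocytes was −0.003 for Pmvk and −0.033 for Srebf2. The pair alone gave −0.012 for Elovl5 in PreOL over OPC, and −0.024 for Mvk, −0.061 for Pmvk and −0.091 for Srebf2 in OL over astrocytes. Scap was 0.011 in PreOL over OPC without marker-rich cells. Pmvk in OL over PreOL was the called gene among these.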

Other observations

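Of 17 genes of sterol transport and turnover, 3 were higher and 3 lower in PreOL over OPC (17.6% each, against 10.5% and 9.95% of all genes). In OL over PreOL 8 were higher and 2 lower (47.1% and 11.8%, against 22.4% and 17.6%), and in OL over astrocytes 8 and 6 (47.1% and 35.3%, against 34.3% and 32%). In RGL over astrocytes 1 was higher and 8 lower (5.88% and 47.1%, against 19.6% and 18.9%), and in progeny over RGL 2 and 10 (11.8% and 58.8%, against 31.2% and 31.1%). Lrp1, a lipoprotein receptor, had 417 and 506 scaled CPM in OPC, 91.2 and 104 in PreOL and 4.46 and 4.01 in OL, with differences of −2.24 ± 0.14 and −4.53 ± 0.21 (edgeR, n = 2 libraries per class). Vldlr, another receptor of that family, went the other way in OPC and PreOL, with 74.4 and 116 scaled CPM in OPC, 174 and 231 in PreOL and 221 and 276 in OL and 1.06 ± 0.16 for PreOL over OPC. Abcg1, a sterol exporter, was lower in PreOL than in OPC and OL, with 62.5 and 116 scaled CPM in OPC, 17.3 and 11.5 in PreOL and 109.8 and 131 in OL (−2.76 ± 0.34 and 3.12 ± 0.26). Npc1, which moves cholesterol out of lysosomes, had 391 and 390.5 scaled CPM in OL, against 121 and 111 in PreOL (1.76 ± 0.11).

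Soat1, which esterifies cholesterol, stood highest in astrocytes among the classes fitted. It had 14.5 and 15.2 scaled CPM in OL, against 255 and 276 in astrocytes (−4.16 ± 0.12), and 152 and 169 in RGL, against 255 and 276 in astrocytes (−0.73 ± 0.09). In progeny it had 27.02 and 27.2 scaled CPM, against 152 and 169 in RGL (−2.56 ± 0.10). Cyp46a1, the cholesterol hydroxylase of the brain, had 1.84 and 1.59 in progeny, against 19.9 and 21.4 in RGL (−3.55 ± 0.26).

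In the list of 20 genes of stress during dissociation and early response, 5 were higher and 4 lower in OL over astrocytes (25% and 20%, below the 34.3% and 32% of all genes). In PreOL over OPC 0 were higher and 2 lower (0% and 10%, against 10.5% and 9.95%), and in progeny over RGL 4 and 9 (20% and 45%, against 31.2% and 31.1%). Hsp90aa1, a chaperone gene, was higher in OL than in PreOL (2.15 ± 0.12) and in RGL than in astrocytes (1.39 ± 0.12). Ier2, an early response gene, was higher in RGL than in astrocytes by 2.27 ± 0.19.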
